A study of Mus musculus with 18 samples.

Results

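Ribosome footprints of Sam68 knockout (Sam68 KO) and Quaking knockout (Quaking KO) mouse embryonic stem cells were compared at day 0, before differentiation. The libraries were chosen by their titles and gave 3 of Sam68 KO and 3 of Quaking KO, 6 of the 18 in the series. Both lines were made in E14, a mouse embryonic stem cell line, and the series also holds wild-type (WT) E14 cells and all 3 lines at day 10 of embryoid body differentiation, 3 libraries each. The series calls the 3 libraries of a group biological triplicates, and the sources used here do not give whether a knockout line is 1 clone or what lesion it carries. Cells of every group, WT included, were treated with cycloheximide, which stalls translating ribosomes, at 100 µg/mL for 15 min, and protected RNA was selected on a gel at 28 to 32 nt.

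Sam68 and Quaking belong to the STAR family of RNA-binding proteins, which recognise short sequence elements in transcripts and are known to act in splicing and in the handling, stability and translation of mRNA. Quaking is best known for its part in glial myelination and in vessel and muscle development, and Sam68 for alternative splicing and for its binding to signalling proteins. Ribosome profiling sequences the pieces of mRNA that a ribosome shields from nuclease. A footprint count therefore moves with the amount of an mRNA and with its translation, and no matched mRNA measurement was used here to separate them. In bulk cultures such as these, fewer cells of a type and less RNA per cell cannot be told apart either.

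Counts were deposited per feature of the annotation, listed by Ensembl ID with no gene name, and 0 IDs could be matched to a symbol. The features are therefore described by their levels, by lists that could be built from IDs or from the other libraries, and, for the largest differences, by ID. The knocked-out genes and the stem cell markers could not be looked up, so genotypes and cell type rest on the labels alone. Sequencing pool differed with genotype at day 0: Sam68 KO was in pool MIX_2, and Quaking KO was in MIX_1 together with WT. Pool and genotype cannot be told apart in the day 0 comparison. At day 10 both knockout lines were in pool MIX_3.

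The Sam68 KO libraries were the deeper ones. They held 4629369, 8062158 and 5366374 counts in replicates 1, 2 and 3, against 3019843, 1373377 and 2541479 counts in Quaking KO. The 10 most abundant features took 7.01% to 8.68% of the counts in Sam68 KO and 11.9% to 21.3% in Quaking KO. Between 18964 and 22395 features had a count in a Sam68 KO library, against 15274 to 17758 in a Quaking KO library. Across features, log2 CPM (counts scaled to library size) correlated at 0.968 to 0.981 between Sam68 KO libraries and at 0.965 to 0.974 between Quaking KO libraries, against 0.942 to 0.964 between a Sam68 KO and a Quaking KO library. The features are not independent replicates, and these values are a description.

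In Sam68 KO stem cells, 349 features were higher and 105 were lower than in Quaking KO stem cells, out of 13701 tested (edgeR's quasi-likelihood test, two-sided, p under 0.05 after Benjamini-Hochberg adjustment). These are 2.55% and 0.766% of the features tested, 3.31% in all. Most of the higher features differed by a modest factor, and a larger share of the lower ones differed by 8-fold or more. The Sam68 KO libraries were the deeper ones, so a very low level, and with it a large fold, is easier to resolve in Sam68 KO. The part of depth and of scaling in this contrast was not tested. Of the 349 higher features, 171 (49%) differed by less than 2-fold, 125 (35.8%) by 2- to 4-fold, 35 (10%) by 4- to 8-fold and 18 (5.16%) by 8-fold or more. Of the 105 lower features, 32 (30.5%) differed by less than 2-fold, 21 (20%) by 2- to 4-fold, 18 (17.1%) by 4- to 8-fold and 34 (32.4%) by 8-fold or more. The 3 and 3 libraries did not overlap for 348 of the 349 and for 103 of the 105, which the test favours, while 24.8% of all features tested had no overlap.

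The excess of higher over lower features depended on the scaling, on the filter on low counts and on which libraries shared the fit. The median log2 fold change over all features was 0.11 with the filter and TMM scaling over the 18 libraries, so that a typical feature stood slightly above 0. With RLE scaling this median was 0.02, and the calls were 237 higher and 139 lower (63% higher, against 76.9%). Upper quartile scaling gave 222 higher and 146 lower (60.3% higher). With TMM scaling over the 18 libraries but no filter, the median of the same features was 0.01, and 270 were higher and 163 lower (62.4% higher). DESeq2 gave a median of 0.02, with 296 higher and 192 lower (60.7% higher). In a fit of the 9 day 0 libraries, with a median of 0, 387 were higher and 367 were lower (51.3% higher). Of the 454 features, 378 passed in that fit too, which is 83.3% of the 454 and 50.1% of its 754. Leaving out Quaking KO replicate 3 gave 239 calls and leaving out Quaking KO replicate 1 gave 245.

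**Figure D1:**
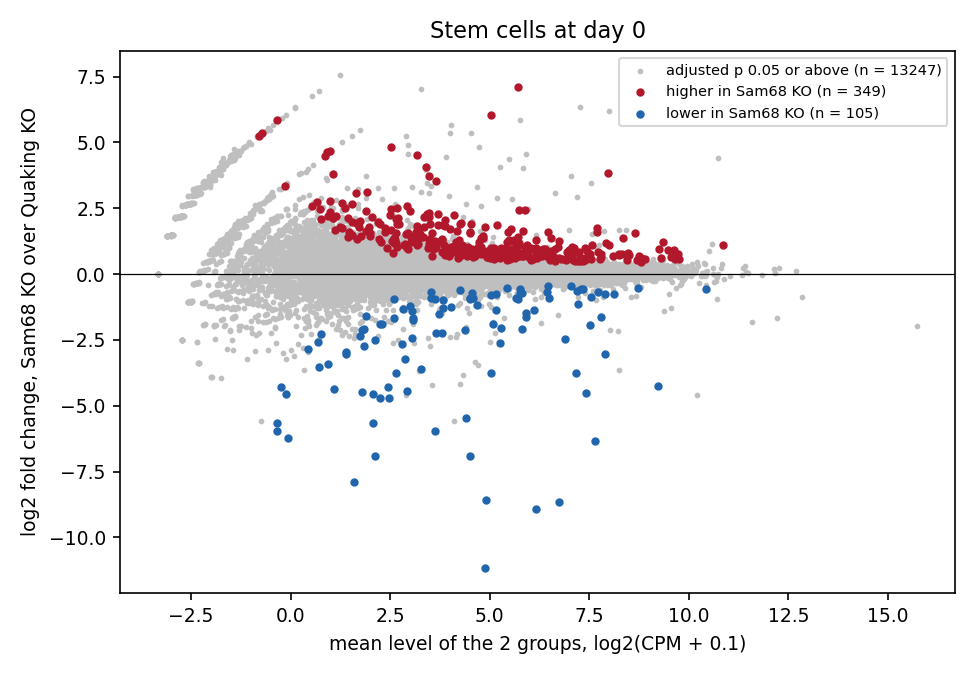
Log2 ratio of Sam68 KO to Quaking KO at day 0 (vertical axis) against the mean level of both groups in log2(CPM + 0.1) (horizontal axis), 1 point per feature tested. Red points are the 349 features higher in Sam68 KO, blue points the 105 lower and grey points the rest; the blue points reach much farther from 0 than most red ones.

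The higher and lower features differed in abundance. The median feature among the 349 higher ones had 37.3 CPM in Sam68 KO and 18 CPM in Quaking KO, with 28.6 CPM in WT. Among the 105 lower ones the median levels were 4.8 CPM in Sam68 KO and 24.2 CPM in Quaking KO, with 19.8 CPM in WT. The 34 features that were lower by 8-fold or more stood near the detection limit in 1 line only: their median level was 0.332 CPM in Sam68 KO, where a floor of 3 counts per library is 0.301 to 0.519 CPM, against 11 CPM in Quaking KO and 8.97 CPM in WT. The 18 features that were higher by 8-fold or more had a median of 5.93 CPM in Sam68 KO, against 0.505 CPM in Quaking KO, where the floor is 0.895 to 1.72 CPM, and 1.26 CPM in WT.

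Features with almost no reads in 1 line were few. Only 2 features had at most 3 counts summed over the Sam68 KO libraries while averaging at least 10 CPM in Quaking KO, and both passed the test. In the opposite direction 3 features had at most 3 counts over the Quaking KO libraries with at least 10 CPM in Sam68 KO, and 1 of them passed.

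The features named by ID are those with the largest fold change in each direction among the features past the threshold whose libraries did not overlap and whose higher group averaged 10 CPM or more, a rule met by 285 higher and 75 lower features. ENSMUSG00000061928.6 was not counted in Sam68 KO stem cells. It had 0, 0 and 0 CPM in the Sam68 KO libraries, against 53.4, 67.2 and 55.2 CPM in Quaking KO and 44.6, 46.7 and 39.3 CPM in WT. Quaking KO and WT lay close together and every Sam68 KO library was at 0. Set against a floor of 3 counts per library, it was at least 139-fold lower in Sam68 KO than in Quaking KO (edgeR's quasi-likelihood test, adjusted p = 3.29e-11). It passed in all 15 alternative fits, with adjusted p between 3.83e-93 and 0.00014. At day 10 it had no count in the 6 knockout libraries, so nothing can be said of it there.

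ENSMUSG00000033872.6, the other lower feature named by the rule, was at or near 0 in Sam68 KO stem cells. It had 0, 0.201 and 0.591 CPM in the Sam68 KO libraries, 6 counts in all, against 158, 150 and 118 CPM in Quaking KO and 90.8, 144 and 71.6 CPM in WT. The Sam68 KO libraries lay far below all Quaking KO and WT libraries, and WT overlapped Quaking KO. The means were 0.264 ± 0.301 CPM in Sam68 KO and 142 ± 21.1 CPM in Quaking KO (SD, n = 3 each), a log2 fold change of -8.93 (SE 0.75, edgeR's quasi-likelihood test, adjusted p = 1.53e-05). It passed in all 15 alternative fits, with adjusted p between 5.11e-18 and 0.000389. At day 10 it was scarce in both lines, with 1.76, 0 and 2.78 CPM in Sam68 KO and 3.71, 0.775 and 5.89 CPM in Quaking KO. WT at day 10 had 7.2, 14.6 and 0 CPM, also below its day 0 values.

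ENSMUSG00000097575.2 was the higher feature with the tighter replicates. It had 56.8, 70.4 and 65.4 CPM in the Sam68 KO libraries, against 1.19, 0 and 1.25 CPM in Quaking KO and 1.89, 1.4 and 0.388 CPM in WT. Sam68 KO stood alone, and Quaking KO and WT overlapped at low levels. The means were 64.2 ± 6.87 CPM in Sam68 KO and 0.814 ± 0.705 CPM in Quaking KO (SD, n = 3 each), with a log2 fold change of 6.04 (SE 0.97, edgeR's quasi-likelihood test, adjusted p = 0.00347). The call held in 14 of 15 alternative fits and was lost when all libraries were thinned to the smallest total (adjusted p = 0.0722). At day 10 it had 11.8, 35.8 and 19.4 CPM in Sam68 KO and 2.78, 1.29 and 8.69 CPM in Quaking KO. These libraries did not overlap, and the log2 fold change of 2.23 did not pass the test (edgeR, adjusted p = 0.0696).

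ENSMUSG00000048022.11 had the largest fold change among the higher features but an uneven level. It had 12.6, 165 and 135 CPM in the Sam68 KO libraries, against 0.895, 1.15 and 0.312 CPM in Quaking KO and 6.83, 22.1 and 1.63 CPM in WT. Sam68 KO replicate 1 lay far under the other two and under the highest WT library. The log2 fold change was 7.12 (SE 1.77), only just past the threshold (edgeR's quasi-likelihood test, adjusted p = 0.0491). The call was lost in 13 of 15 alternative fits, with adjusted p between 6.42e-06 and 0.197, so this feature is given as a value and not as a firm difference. It was lost without any one of 5 of the 6 libraries and kept without Sam68 KO replicate 1.

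**Figure D2:**
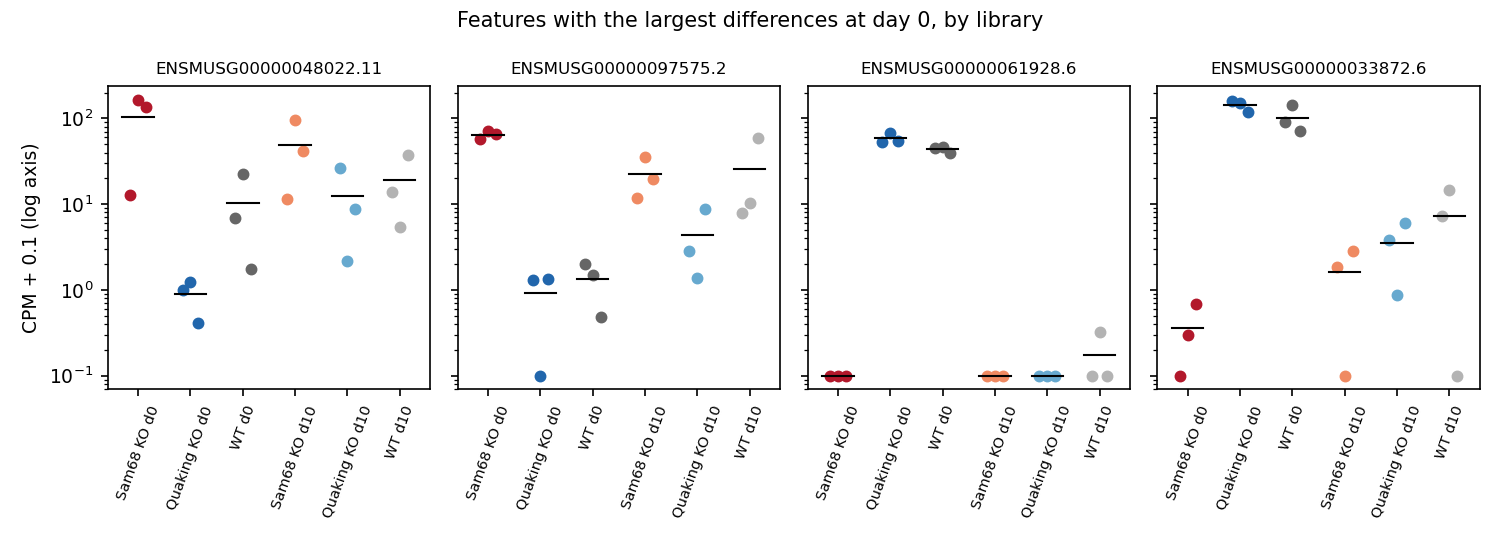
Level of the 4 features named by ID in every library, as CPM + 0.1 on a log axis, with Sam68 KO, Quaking KO and WT at day 0 and then at day 10. Points are libraries and bars are group means; the 2 features on the right are at or near 0 in Sam68 KO at day 0, while the Sam68 KO points of ENSMUSG00000097575.2 sit together at 56.8 to 70.4 CPM.

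The WT libraries were set beside both knockout lines. Sam68 KO and WT differed for 173 features (1.26% of those tested), 85 higher (0.62%) and 88 lower (0.642%) in Sam68 KO (edgeR, adjusted p under 0.05). Quaking KO and WT differed for 50 features (0.365%), all lower in Quaking KO, as were the 31 called with RLE and the 31 with upper quartile scaling. With DESeq2 48 of 59 were lower, in a fit of these groups alone 61 of 95, and in the fit of the 9 day 0 libraries 28 of 36. In the main edgeR fit an unadjusted p under 0.05 was reached by 111 features in the higher direction and 826 in the lower. The median log2 fold change over all features was -0.092 in that fit, so a typical feature stood slightly below 0 in Quaking KO. Quaking KO shares its pool with WT and Sam68 KO does not. For the 349 features higher in Sam68 KO than in Quaking KO, the median log2 fold change was 0.48 for Sam68 KO over WT and -0.51 for Quaking KO over WT. For the 105 lower features the medians were -1.56 for Sam68 KO over WT and 0.34 for Quaking KO over WT. These comparisons share the knockout libraries with the one that chose the features, so their values are given side by side and not as support. Over all features tested the medians were 0.02 for Sam68 KO over WT and -0.09 for Quaking KO over WT. Choosing features by the difference between the lines itself favours values on either side of WT. Which line departed from WT was therefore not tested for the 349 or for the 105 as a set.

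Embryoid bodies at day 10 gave the same contrast in other libraries, with both lines in 1 pool. These libraries shared 1 fit with those of day 0, so they had a part in the filter, scaling and spread behind the day 0 calls. At day 10, 1787 features were higher in Sam68 KO than in Quaking KO (13%) and 1455 were lower (10.6%), 23.7% in all (edgeR's quasi-likelihood test, adjusted p under 0.05). The balance between the directions depended on scaling here too, with 55.1% of the calls higher, against 44.5% with RLE (1505 higher and 1875 lower). Of the 349 features higher at day 0, 130 (37.2%) were also higher at day 10 and 50 (14.3%) were lower. Their median log2 fold change at day 10 was 0.32 (quartiles -0.25 and 1.1), against 0.03 over all features tested. Of these 349, 227 (65%) were above 0 at day 10, against 52.1% of all features. With RLE scaling, 84 of 237 higher features (35.4%) were also higher at day 10.

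The features lower at day 0 were split in direction at day 10. Of these 105, 16 (15.2%) were lower at day 10 and 18 (17.1%) were higher, against 10.6% and 13% of all features, and their median log2 fold change was 0.22, against 0.03 over all features. Of the 34 that were lower by 8-fold or more, 2 (5.88%) were lower at day 10 and 6 (17.6%) were higher. The median levels of those 34 at day 10 were 2.87 CPM in Sam68 KO and 2.86 CPM in Quaking KO, and 10 (29.4%) averaged under 1 CPM in both lines, where a loss can no longer be seen. Of the 18 that were higher by 8-fold or more, 3 (16.7%) were higher and 2 (11.1%) were lower at day 10, against 13% and 10.6% of all features. Their median levels at day 10 were 14.9 CPM in Sam68 KO and 7.43 CPM in Quaking KO. The interaction of line and day, which tests whether the difference changed between the days, passed for 1551 features (11.3%), with 637 more positive (4.65%) and 914 more negative (6.67%) at day 10. Pool differed between the lines at day 0 and not at day 10, so a change with day cannot be told apart from pool here. In Sam68 KO replicates 2 and 3 at day 10, the 10 most abundant features took 60.2% and 64.4% of the counts. A fit without these libraries and WT day 10 replicate 3 (70.4%) has a single Sam68 KO library at day 10. That library is assumed to vary like the libraries of the other groups, so no day 10 calls of that fit are given.

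**Figure D3:**
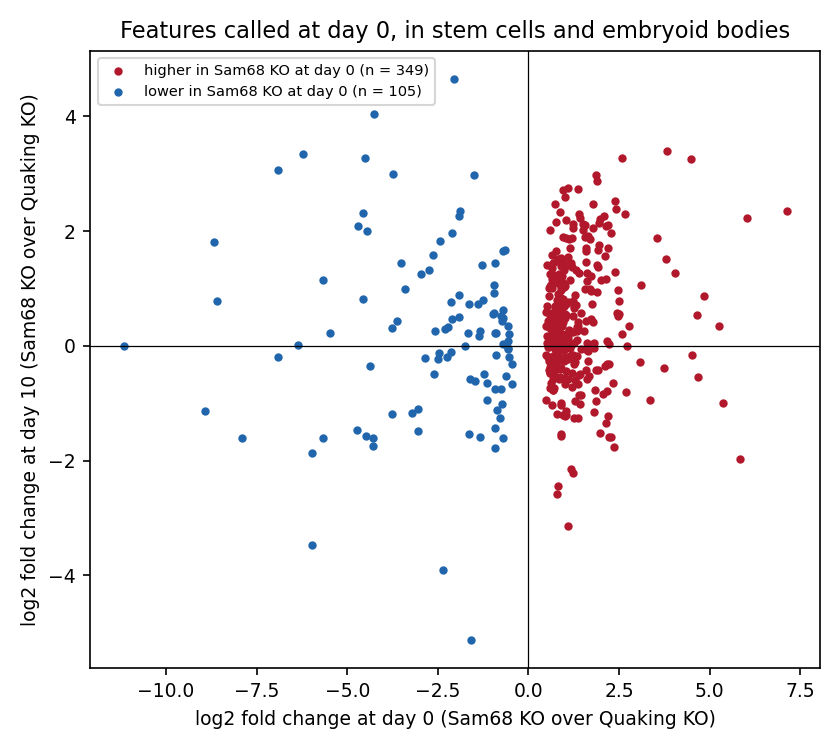
Log2 ratio of Sam68 KO to Quaking KO at day 10 (vertical axis) against day 0 (horizontal axis) for the 454 features past the threshold at day 0. Red points, higher at day 0, have a day 10 median of 0.32, and blue points, lower at day 0, spread to both sides of 0 with a median of 0.22.

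Lists of features were described by counts and medians beside those of all features, with no test of a list. Features that rose with differentiation of WT cells were those at least 2-fold higher in WT at day 10 than at day 0 with an adjusted p under 0.05, 3743 features (27.3% of those tested). Of these, 183 (4.89%) were higher in Sam68 KO stem cells than in Quaking KO stem cells and 16 (0.427%) were lower, against 2.55% and 0.766% of all features. With RLE scaling the counts were 132 and 18, where all features gave 237 higher and 139 lower. Without Quaking KO replicate 1 they were 104 and 8, against 195 and 50 of all features. Without Quaking KO replicate 3 they were 90 and 9, against 177 and 62 of all features. Their median log2 fold change was 0.32, against 0.11 over all features. By library, the list's median stood 0.05, 0.04 and 0.12 above that of all features in Sam68 KO, and at -0.06, -0.06 and -0.1 relative to it in Quaking KO, on a log2 scale against the mean of the 6 libraries. All Sam68 KO libraries were above all Quaking KO libraries, by a small amount.

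The pools run the same way in both comparisons: WT went through pool MIX_1 at day 0 and MIX_2 at day 10, and Quaking KO and Sam68 KO stem cells were in MIX_1 and MIX_2. The rise of these features in WT and their difference between the knockout lines therefore cannot be told apart from the pool. At day 10, in 1 pool, 861 of the 3743 (23%) were higher in Sam68 KO and 619 (16.5%) were lower, both above the 13% and 10.6% of all features, with a median of 0.14 against 0.03 over all features. Their summed level went the other way at day 0, with 84200 to 92200 CPM in Sam68 KO and 111000 to 220000 CPM in Quaking KO. That sum was led by 1 feature, at 15800 to 25300 CPM in Sam68 KO and 55300 to 124000 CPM in Quaking KO, and without it the ranges were 67000 to 68400 CPM and 55500 to 96000 CPM, which overlap.

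Features that fell at least 2-fold with differentiation of WT cells (2699, or 19.7% of those tested) had a median near that of all features. In Sam68 KO stem cells 38 of them (1.41%) were higher and 40 (1.48%) were lower than in Quaking KO, with a median log2 fold change of 0.04 against 0.11 over all features. The counts moved with scaling, to 23 higher and 50 lower with RLE, where all features gave 237 and 139. In the fit of the 9 day 0 libraries they were 69 and 137, where all features gave 387 and 367. The median relative to that of all features was -0.08 with TMM, -0.08 with RLE and -0.06 in the 9-library fit. By library the list stood at -0.01, -0.02 and -0.07 relative to all features in Sam68 KO, and at 0.03, 0.02 and 0.06 in Quaking KO, with no overlap. Features near absent from WT stem cells stayed rare in both knockout lines. The 34 features with at least 100 CPM in WT at day 10 and under 1 CPM in WT at day 0 summed to 24.3 CPM in Sam68 KO stem cells and 18.1 CPM in Quaking KO stem cells, with 14.5 CPM in WT stem cells. These sums are 0.178%, 0.133% and 0.106% of their level in WT embryoid bodies, 13600 CPM. They ranged from 24.1 to 24.5 CPM over the Sam68 KO libraries and from 11.2 to 21.8 CPM over the Quaking KO libraries.

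Cell cycle markers, taken by Ensembl ID from the mouse marker pairs distributed with scran and kept where a feature marked 1 phase only, gave few calls. Of 35 S phase markers 1 was higher in Sam68 KO (2.86%, against 2.55% of all features), and of 29 G2/M markers 1 was lower (3.45%, against 0.766%), counts too small to set either list apart. Of the 11 G1 markers 0 passed with edgeR and 0 with DESeq2, and 1 had an unadjusted p under 0.05. The medians were 0.13 for S, 0 for G2/M and -0.09 for G1 markers, against 0.11 over all features. Relative to all features, the 11 G1 markers stood at -0.15, -0.07 and -0.12 in the Sam68 KO libraries, and at 0.11, 0.05 and 0.12 in the Quaking KO libraries. The groups did not overlap for this short list, nor for the G2/M markers, at 0.01, -0.02 and -0.13 in Sam68 KO and 0.03, 0.11 and 0.05 in Quaking KO. The part of the cell cycle in other differences was not tested.

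**Figure D4:**
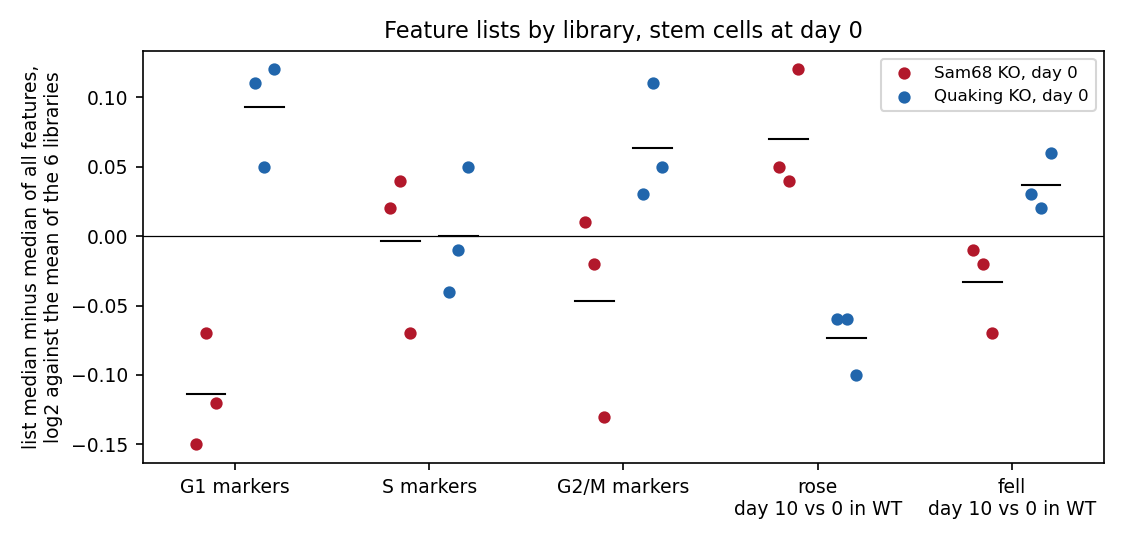
Median of each feature list minus the median of all features in each day 0 library, on a log2 scale against the mean of the 6 libraries, with Sam68 KO (red) left of Quaking KO (blue) and bars at group means. The features that rose in WT lie above 0 in the 3 Sam68 KO libraries and below 0 in the 3 Quaking KO libraries; the G1 markers and the features that fell in WT lie the other way, and the S phase markers overlap.

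The files list all features in 1 order whose basis they do not state, and neighbouring features were examined along it. One stretch stood apart, and it was chosen after its values were seen. Over 100 consecutive features with at least 5 CPM, from row 41027 to row 41385, the median log2 ratio of Sam68 KO to Quaking KO at day 0 was 0.44, a 1.36-fold difference, against 0.09 over the 9489 features at this level. In this stretch 27 of the 100 features were higher (3.15% of the 9489) and 93 had a log2 fold change above 0 (63.1% of the 9489). None was lower with edgeR or with DESeq2, and 3 had an unadjusted p under 0.05 in the lower direction. The stretch stood 0.35 above the median of these 9489 features, and the next highest window that did not overlap it stood 0.12 above. The margin was narrower with windows of 50 features (0.5 against 0.31), of 200 features (0.22 against 0.09) and with no minimum level (0.35 against 0.19).

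The same rows were raised at day 10, in libraries whose ratios were not used to choose them but which shared the fit. There the median log2 fold change of the stretch was 0.39, which was 0.35 above that of the 9489 features and ranked 20 of 9390 windows. The highest window at day 10 began at row 41059 and overlapped the stretch. Of the 100 features, 30 were higher in Sam68 KO at day 10, against 13.5% of the 9489, and 7 were lower, against 8.83%, so that only the higher count stood above its background. Relative to WT of the same day and to all features, the stretch stood at 0.17, 0.21 and 0.16 (log2) in the Sam68 KO libraries and at -0.18, -0.22 and -0.21 in the Quaking KO libraries at day 0. At day 10 the values were 0.2, 0.13 and 0.29 in Sam68 KO and -0.17, -0.13 and -0.1 in Quaking KO. Each Sam68 KO library was above and each Quaking KO library below WT on both days. The stretch was chosen by the day 0 difference between the lines, which itself favours day 0 values on either side of WT. Sam68 KO at day 0, and both lines at day 10, were in another pool than WT. Which line departed from WT in the stretch was not tested.

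**Figure D5:**
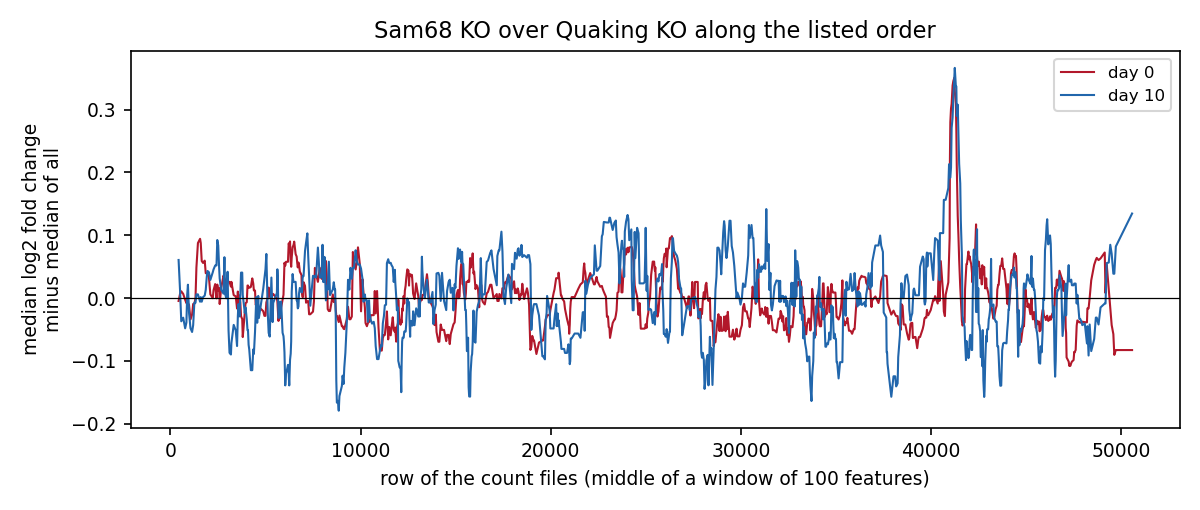
Median log2 ratio of Sam68 KO to Quaking KO in windows of 100 features minus the median of all features (vertical axis), along the rows of the count files (horizontal axis), at day 0 (red) and day 10 (blue). On both days the highest windows, which begin at rows 41027 and 41059, reach 0.352 and 0.367, while the day 0 windows that do not overlap the first of these stay between -0.108 and 0.117.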

How the data were processed

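Each library had 1 deposited file of whole-number counts per versioned Ensembl ID, 51826 features in the same order, made by the authors from ribosome footprints. Per the submitters' processing notes, the tools were STAR 2.5.3a, Bowtie2 and bcl2fastq 2.17.1.14, and the builds mm10 and GRCm38. The program that counted, its annotation release and whether it used strand: not given in the sources used here. Overlapping, antisense and near-identical features are therefore uncertain. Groups, replicate numbers and pools came from the labels.

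The deposited counts were tested with edgeR 4.0.16 (R 4.3.3; quasi-likelihood, robust fit, TMM scaling, default filter on low counts) in 1 fit of 18 libraries with a mean per group, which kept 13701 of the 33167 features with any count. The common biological coefficient of variation was 0.229. CPM use the TMM library sizes, errors of CPM means are SD over 3 libraries, and adjusted p-values are Benjamini-Hochberg over all features tested. The SE beside a log2 fold change was derived as its absolute value over the square root of the test's F statistic. It is only a rough guide for features at or near 0 in a group. Floors of 3 counts cover counting error only; without molecular identifiers, reads can be copies of 1 molecule. P-values of the main fit set a difference between groups against the spread between libraries of a group, estimated for each feature over all 6 groups. In each of the 6 groups all replicate pairs differed by more than sampling noise (lowest chi-square over its degrees of freedom 5.32).

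The alternatives were DESeq2 1.42.0, upper quartile or RLE scaling, no filter on counts, fits of fewer groups, a replicate block, thinning to 988210 counts, leaving out 3 libraries in which 10 features took over 40% of counts, and leaving out each library. The test was checked on simulated data.

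The reference table of 49997 genes held no Ensembl ID, so the 35 lists by symbol, chromosome medians, the protein-coding-only fit, the marker check and the knocked-out genes were not run, and no sequence is shown. The rule for named features (past the threshold, at least 10 CPM, no overlap, ranked by log2 fold change) was applied by ID, with 2 in each direction. Cell cycle pairs came from scran 1.30.0. The comparison and lists were chosen with earlier results of these data known.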

Additional observations from a re-analysis of the deposited data

Results flagged for a closer look

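ENSMUSG00000033872.6 differed between Sam68 KO and Quaking KO by different amounts on the 2 days. Its log2 fold change was -8.93 at day 0 and -1.14 at day 10, an interaction of 7.78 (SE 1.47, edgeR's quasi-likelihood test, adjusted p = 0.00408). The lines were in different pools at day 0 and in 1 pool at day 10, so day and pool cannot be told apart in this interaction. At day 10 the groups overlapped, with means of 1.51 ± 1.41 CPM in Sam68 KO and 3.46 ± 2.57 CPM in Quaking KO (SD, n = 3 each). Both levels were near the floor of 3 counts. The day 0 means were 0.264 CPM in Sam68 KO and 142 CPM in Quaking KO. In WT the mean was 102 CPM at day 0 and 7.27 CPM at day 10, so the level was lower at day 10 in WT and Quaking KO alike.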

How the results depend on the processing

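The count of 454 features at day 0 became 754 in the fit of the 9 day 0 libraries and 46 after thinning, which discards most counts of the deeper libraries, and ranged from 239 to 415 when 1 library was left out. With the replicate number as a block it was 438, of which 402 were shared; same-numbered libraries did not deviate together (correlations -0.065, 0.0832 and 0.00398), so the numbers were not taken as pairs. For Sam68 KO against Quaking KO at day 10 (3242), thinning gave 591 and leaving out a library 2389 to 3149. For the interaction (1551) these were 147 and 1147 to 1615. For Sam68 KO against WT (173), no filter gave 268, the compared groups alone 297, the 9 day 0 libraries 385 and thinning 35, and leaving out a library 81 to 217. For Quaking KO against WT (50), RLE gave 31, upper quartile 31, the compared groups alone 95, thinning 6 and the fit without the dominated libraries 91, and leaving out a library 21 to 48. The causes were not tested beyond the smaller number of samples or counts. Of the features that rose in WT, 119 were higher and 23 lower in the fit of the compared groups alone, where all features gave 264 and 227. In the 9 day 0 libraries they were 154 and 40, against 387 and 367 of all features. After thinning they were 21 and 2, against 28 and 18 of all features. The median of the features that rose in WT stood 0.15 to 0.23 above that of all features in every alternative run. The stretch along the listed order stood 0.33 above the median of all features tested at day 0 in the main fit, and 0.32 to 0.43 above it in the alternative fits. Window sizes were added after the data had been seen: windows of 50 and 200 features peaked in overlapping rows, at 0.5 and 0.22, and stood 0.17 and 0.25 above all features at day 10. Depth limits the low features most: 3 counts were 0.301 to 0.519 CPM in Sam68 KO and 0.895 to 1.72 CPM in Quaking KO.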
